A study of Mus musculus with 17 samples.

Results

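Transcription factors and other genes known for their expression in glucagon-producing alpha cells were followed in islets of mice with altered *Pax4*. The 8 genes were *Irx1*, *Irx2*, *Pou3f4* and *Etv1*, which encode transcription factors, and *Gc*, *Ttr*, *Slc7a2* and *Loxl4*, which encode secreted proteins, a transporter and an enzyme of the extracellular matrix. They were chosen by name, with earlier results of these data known. They are 8 of the 78239 genes listed for the *Pax4* R192H mice and of the 73212 genes listed for the *Pax4* knockout mice, and all 8 passed the filter on low counts in both tables. *Gc* and *Ttr* were higher and *Slc7a2* was lower in islets of HFD-fed *Pax4* R192H mice than in HFD-fed wildtype mice, with no overlap between the mice, as for 22.9% of all genes tested. For *Gc* and *Ttr* the difference passed the test, as it did for 2.28% of all genes tested. None of the 4 transcription factors passed the test in any comparison.

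Bulk RNA-seq was made from isolated islets of male mice and covers 17 mice in 2 tables, each of which was normalised on its own, so that no level was compared between them. The first table holds wildtype littermates and mice homozygous for *Pax4* R192H (numbered R200H in the mouse protein) of C57BL6/N background, with 3 mice of each genotype on a standard chow diet (SCD) at 12 weeks of age and 3 of each on a high-fat diet (HFD) for 4 weeks at 16 weeks of age. Diet and age changed together and cannot be told apart. The second table holds 2 control mice, which carried floxed *Pax4* alleles and no Cre, and 3 *Pax4* βiKO mice, which carried the floxed alleles and Cre-ERT2 driven by the *Pdx1* promoter. All 5 received tamoxifen between 7 and 9 weeks of age and an HFD from 12 weeks for 8 weeks, so that they were 20 weeks old. The presence of Cre and the loss of *Pax4* changed together and cannot be told apart.

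Alpha cells make glucagon and, with the insulin-producing beta cells, form most of the endocrine islet. Both arise from common endocrine progenitors, in which the transcription factor Pax4 favours the beta-cell fate over the alpha-cell fate. *Irx1* and *Irx2* encode homeodomain proteins of the Iroquois family, *Pou3f4* encodes the POU-domain factor Brn4 of early alpha cells, and *Etv1* encodes an ETS-domain factor. Gc is the vitamin D-binding protein of plasma, Ttr (transthyretin) carries thyroxine and retinol-binding protein, Slc7a2 takes up cationic amino acids such as arginine, and Loxl4 crosslinks collagen and elastin. In whole islets, fewer cells of a type and less RNA per cell cannot be told apart.

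Total counts were 24268157 to 42679645 per mouse for the first table and 28618835 to 31887537 for the second, and values are given as CPM, the counts scaled to a common library size after TMM normalisation. Of the first table's counts, 2 genes without a name in the reference annotation took between 36.2% and 53.3% in each mouse. *Pax4* itself had 0 counts in 17 of 17 mice, which allows a share of up to 1.24e-05% of the smallest library, so that neither the R192H change nor the deletion could be checked on it. This bound covers counting error only. By quantitative RT-PCR, the paper detected *Pax4* mRNA at a low level in adult islets. It reported the deletion from PCR of genomic DNA and from quantitative RT-PCR of islets. *Esr1*, which Cre-ERT2 contains in a modified form, had 16 and 19 counts in the control mice and 7648, 9043 and 9732 counts in the βiKO mice. A gene was called where its adjusted p was below 0.05 over all genes tested and its log2 fold change above 0.5 in size. Markers of acinar cells, the enzyme-producing cells around the islets, differed between the groups and are given after the members.

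The genes lie at separate places in the mouse genome (GRCm38, GENCODE M21), except that *Irx1* and *Irx2* are neighbours 665 kb apart. On chromosome 13, *Irx1* (ENSMUSG00000060969) occupies 71957921 to 71963723 of the minus strand and *Irx2* (ENSMUSG00000001504) 72628820 to 72634198 of the plus strand. *Pou3f4* (ENSMUSG00000056854) is a gene of 1 exon on the plus strand of the X chromosome from 110814280 to 110817207. *Etv1* (ENSMUSG00000004151) spans 38779380 to 38870484 on the plus strand of chromosome 12. *Gc* (ENSMUSG00000035540) spans 89417522 to 89457898 on chromosome 5 and *Loxl4* (ENSMUSG00000025185) 42593982 to 42612813 on chromosome 19, both on the minus strand. *Ttr* (ENSMUSG00000061808) spans 20665280 to 20674321 on chromosome 18 and *Slc7a2* (ENSMUSG00000031596) 40862396 to 40922308 on chromosome 8, both on the plus strand. The deposited values are sums over the transcripts of each gene, not of single exons. *Slc7a2* shares 635 exonic bases with the antisense transcript *Gm26584*, which is not listed in either table, and whether reads were counted by strand is not given in the sources used here.

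Per kilobase of merged exon, the secreted proteins stood far above the transcription factors. In SCD-fed wildtype islets *Ttr* was at 484 ± 91.7 CPM per kb (SD, n = 3), *Gc* at 42.2 ± 14.6 and *Slc7a2* at 22.6 ± 4.57. *Etv1* followed at 1.95 ± 0.665, *Irx2* at 1.90 ± 0.438 and *Irx1* at 1.03 ± 0.392 CPM per kb. The lowest were *Pou3f4* at 0.203 ± 0.0392 and *Loxl4* at 0.0802 ± 0.0408. This order from *Ttr* down to *Loxl4* was the same by group mean in all 6 groups, although the spreads (mean ± SD) of *Etv1* and *Irx2* overlapped in all 4 groups of the first table and those of *Irx2* and *Irx1* in 3 of the 4.

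**Figure D1:**
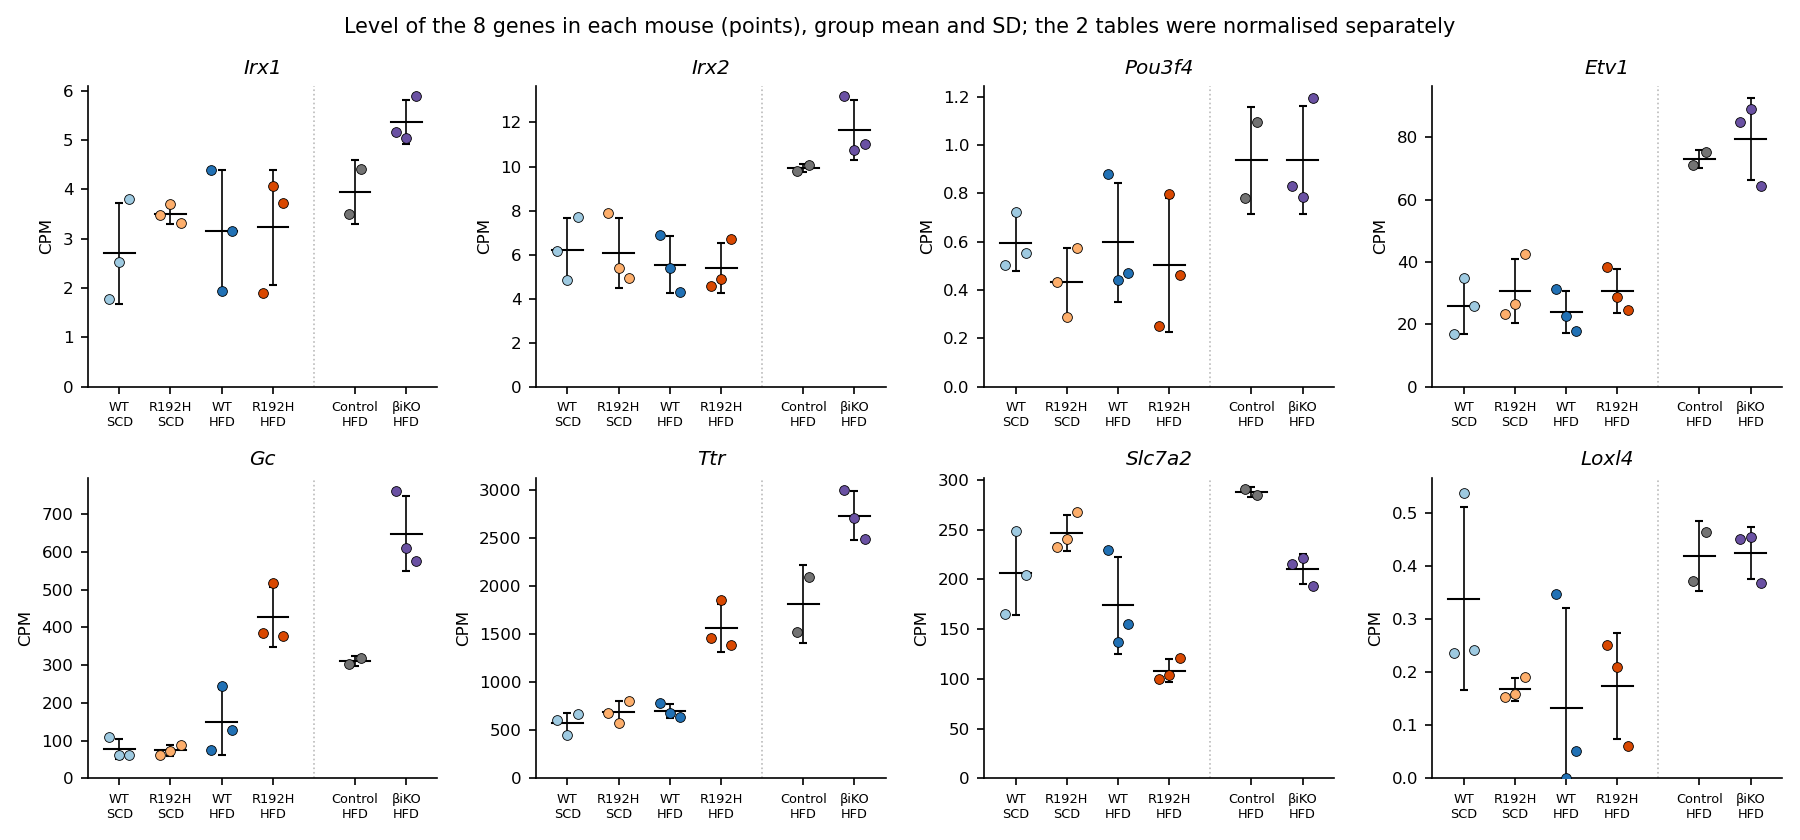
Level of each of the 8 genes in every mouse, as CPM of the normalised library, with 1 point per mouse, the group mean as a bar and the SD as a whisker. The dotted line separates the *Pax4* R192H table from the βiKO table; HFD-fed *Pax4* R192H mice lie above all HFD-fed wildtype mice for *Gc* (378 CPM and above against 245 CPM and below) and *Ttr*, and below them for *Slc7a2*.

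*Irx1* and *Irx2* did not differ between *Pax4* R192H and wildtype islets beyond the spread between mice on either diet. *Irx1* was at 1.79, 2.52 and 3.81 CPM in SCD-fed wildtype mice and at 3.48, 3.71 and 3.32 CPM in SCD-fed *Pax4* R192H mice. HFD-fed mice had 4.40, 1.94 and 3.15 CPM as wildtype and 1.90, 4.07 and 3.73 CPM as *Pax4* R192H, with log2 fold changes of 0.37 (SE 0.35) on the SCD and 0.03 (SE 0.36, 95% interval -0.74 to 0.79) on the HFD. The groups overlapped on both diets, and the SCD-fed *Pax4* R192H mice lay closest together. *Irx2* was at 6.91, 5.39 and 4.32 CPM in HFD-fed wildtype mice and at 4.58, 4.91 and 6.69 CPM in HFD-fed *Pax4* R192H mice, a log2 fold change of -0.04 (SE 0.25, 95% interval -0.58 to 0.51, adjusted p = 0.968). On the SCD it was at 6.17, 4.83 and 7.70 CPM against 7.88, 5.40 and 4.96 CPM (log2 fold change -0.03, SE 0.25). The *Irx2* values of the 4 groups of this table all overlapped with those of their neighbours in order of level.

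Among the knockout mice both Iroquois genes were at higher values in every βiKO mouse than in either control, as 32.6% of all genes tested were separated in one direction or the other, and neither passed the test. *Irx1* was at 3.49 and 4.41 CPM in the controls and at 5.17, 5.05 and 5.89 CPM in βiKO mice (log2 fold change 0.44, SE 0.20, 95% interval -0.02 to 0.90, adjusted p = 0.408). *Irx2* was at 9.81 and 10.1 CPM in the controls and at 13.2, 10.7 and 11.0 CPM in βiKO mice (log2 fold change 0.23, SE 0.14, adjusted p = 0.539). The gap between the highest control and the lowest βiKO mouse was small for both genes.

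*Pou3f4* was low, with 7 to 33 counts per mouse of the first table and 21 to 39 of the second. SCD-fed mice had 0.505, 0.724 and 0.555 CPM as wildtype and 0.432, 0.290 and 0.573 CPM as *Pax4* R192H (log2 fold change -0.47, SE 0.54). Its level in HFD-fed mice was 0.880, 0.444 and 0.469 CPM in wildtype and 0.250, 0.797 and 0.463 CPM in *Pax4* R192H islets (log2 fold change -0.26, SE 0.54, 95% interval -1.42 to 0.90, adjusted p = 0.872). The knockout comparison gave 0.781 and 1.09 CPM in controls and 0.832, 0.786 and 1.20 CPM in βiKO mice (log2 fold change 0.00, SE 0.37, 95% interval -0.87 to 0.87). The groups overlapped throughout, and at this depth the intervals hold changes in either direction.

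*Etv1* showed a wide spread among mice of the same group. It was at 17.1, 34.8 and 25.9 CPM in SCD-fed wildtype mice and at 23.4, 26.6 and 42.6 CPM in SCD-fed *Pax4* R192H mice. HFD-fed wildtype mice had 31.4, 22.8 and 18.0 CPM and *Pax4* R192H mice 38.4, 29.0 and 24.6 CPM (log2 fold change 0.35, SE 0.29, 95% interval -0.27 to 0.97, adjusted p = 0.615). Controls were at 71.1 and 75.2 CPM and βiKO mice at 85.0, 89.1 and 64.4 CPM (log2 fold change 0.12, SE 0.14, adjusted p = 0.756). The groups overlapped in each of these comparisons.

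*Gc* was the member with the largest difference between genotypes on the HFD. HFD-fed wildtype mice had 74.5, 245 and 128 CPM and HFD-fed *Pax4* R192H mice 384, 518 and 378 CPM. Every *Pax4* R192H mouse was above every wildtype mouse, and the wildtype mice were spread more widely in proportion to their mean. The fitted difference was 2.86-fold (log2 fold change 1.52, SE 0.35, 95% interval 0.76 to 2.27, edgeR's quasi-likelihood test with Benjamini-Hochberg adjustment, adjusted p = 0.0414). This call was kept without the second HFD-fed wildtype mouse (adjusted p = 0.00808) and was lost when any other HFD-fed mouse was left out, with adjusted p-values between 0.0857 and 0.159. Across the alternatives that were run, the log2 fold change stayed between 1.20 and 2.07 and the adjusted p between 2.39e-16 and 0.594.

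On the SCD the genotypes overlapped for *Gc*, at 109, 61.4 and 63.0 CPM in wildtype and 60.7, 72.4 and 88.9 CPM in *Pax4* R192H mice (log2 fold change -0.07, SE 0.35, 95% interval -0.82 to 0.67, adjusted p = 1). The group means were 77.8 ± 26.9 CPM in wildtype and 74.0 ± 14.2 CPM in *Pax4* R192H mice on the SCD, against 149 ± 86.9 and 427 ± 79.0 CPM on the HFD (SD, n = 3). In *Pax4* R192H mice *Gc* was thus 5.77-fold higher on the HFD than on the SCD (log2 fold change 2.53, SE 0.36, adjusted p = 0.000757), whereas the change in wildtype mice was 1.92-fold (log2 fold change 0.94, SE 0.35, adjusted p = 0.222). This last value was 0.38 (adjusted p = 0.591) without the second HFD-fed wildtype mouse, the lowest when a mouse was left out, and 1.26 at the highest. The difference between these changes, the interaction of genotype and diet, was 1.59 on the log2 scale (SE 0.49, 95% interval 0.53 to 2.65) and did not pass the test (adjusted p = 0.224). Without the second HFD-fed wildtype mouse its adjusted p was 0.0414, the lowest when a mouse was left out, and the highest was 0.450.

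Of the knockout mice, controls had 302 and 319.6 CPM of *Gc* and βiKO mice 762, 609 and 575 CPM, a 2.09-fold difference (log2 fold change 1.06, SE 0.14, 95% interval 0.74 to 1.38). All 3 βiKO mice were above both controls, and the first βiKO mouse was the highest. The adjusted p over 20167 genes was 0.0631 at an unadjusted p of 7.20e-05, so that the gene was not called. It was called without the third βiKO mouse (adjusted p = 0.0440), and by DESeq2 (adjusted p = 3.51e-12). The range over the alternatives was 5.46e-16 to 0.607.

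The promoters of *Gc* and *Irx2* are shown because *Gc* had the largest fold change among the members in *Pax4* R192H islets on the HFD and *Irx2* almost none. RefSeq (GRCm38.p6) gave a promoter, from 250 bases before to 50 bases after the start of transcription, for 5 of the 8 genes. That of *Gc* is chr5:89457849-89458148 on the minus strand and that of *Irx2* is chr13:72628570-72628869 on the plus strand, written 5′ to 3′.
Gc: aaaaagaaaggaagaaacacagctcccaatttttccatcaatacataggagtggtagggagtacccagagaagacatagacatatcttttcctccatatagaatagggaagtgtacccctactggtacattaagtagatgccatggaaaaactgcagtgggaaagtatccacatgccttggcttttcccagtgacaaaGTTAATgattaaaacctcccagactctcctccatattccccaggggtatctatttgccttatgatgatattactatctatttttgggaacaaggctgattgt
Irx2: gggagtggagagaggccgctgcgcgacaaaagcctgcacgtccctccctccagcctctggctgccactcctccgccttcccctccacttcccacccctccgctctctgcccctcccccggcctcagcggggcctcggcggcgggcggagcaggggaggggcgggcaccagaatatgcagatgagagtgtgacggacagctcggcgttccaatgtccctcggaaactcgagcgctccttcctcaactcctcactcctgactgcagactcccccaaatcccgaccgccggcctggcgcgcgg
Capitals mark a match to GTTAAT, part of the site of the HNF1 factors, which spans positions -52 to -47 from the start of *Gc* and is the only match in these promoters among the motifs given here, searched on both strands. The other motifs were TAATTA of homeodomain factors, then TGTTTAC of FOXA factors and ACANNTGT of Iroquois factors. GTTAAT was found in 7.1% of 32851 promoters of this length, TAATTA in 5.29%, TGTTTAC in 3.65% and ACANNTGT in 7.38%. The longer GTTAATNAT, which was searched after the *Gc* promoter had been read and overlaps GTTAAT, was found in 0.801% of promoters and spans -52 to -44 in *Gc*. The *Gc* promoter held 40.3% G and C and the *Irx2* promoter 69%, beside a median of 52.7% over all promoters. These matches describe the letters and are not evidence of binding.

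*Ttr* differed between genotypes on the HFD as *Gc* did, with a smaller spread. It was at 783, 682 and 641 CPM in HFD-fed wildtype mice and at 1458, 1854 and 1392 CPM in HFD-fed *Pax4* R192H mice. The lowest *Pax4* R192H mouse was well above the highest wildtype mouse. The difference was 2.23-fold (log2 fold change 1.16, SE 0.19, 95% interval 0.76 to 1.56, adjusted p = 0.00731). Leaving out the third HFD-fed wildtype mouse moved the adjusted p to 0.0541, and with any other HFD-fed mouse left out the gene was called. Over the alternatives the log2 fold change was between 1.02 and 1.25 and the adjusted p between 2.00e-08 and 0.390.

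SCD-fed mice were at 603, 454 and 665 CPM of *Ttr* in wildtype and at 682, 574 and 804 CPM in *Pax4* R192H (log2 fold change 0.26, SE 0.18, 95% interval -0.14 to 0.65), with overlap. In *Pax4* R192H mice *Ttr* was 2.28-fold higher on the HFD than on the SCD (log2 fold change 1.19, SE 0.19, adjusted p = 0.00121), while the log2 fold change in wildtype mice was 0.29 (adjusted p = 0.477). The interaction was 0.90 (SE 0.26, 95% interval 0.34 to 1.46, adjusted p = 0.196). The knockout's controls were at 1524 and 2098 CPM and βiKO mice at 3004, 2713 and 2487 CPM, a 1.51-fold difference (log2 fold change 0.59, SE 0.16, 95% interval 0.22 to 0.97, adjusted p = 0.257). The βiKO mice were all above the controls, which differed from each other by more than the gap between the groups. DESeq2 called the knockout difference (adjusted p = 0.00410, with a range of 0.000400 to 0.865 over the alternatives).

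*Slc7a2*, the arginine transporter, was at lower values in both models on the HFD. It was at 229.6, 137 and 155 CPM in HFD-fed wildtype mice and at 99.7, 104 and 121 CPM in HFD-fed *Pax4* R192H mice. The ranges did not overlap, and the wildtype range was the wider. The ratio was 0.623 (log2 fold change -0.68, SE 0.19, 95% interval -1.10 to -0.27) with an adjusted p of 0.0828. Without the second HFD-fed wildtype mouse the adjusted p was 0.0479, with DESeq2 it was 0.0139, and over the alternatives it was between 0.00290 and 0.728.

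On the SCD *Slc7a2* was at 165, 249 and 204 CPM in wildtype and at 232, 241 and 267 CPM in *Pax4* R192H mice (log2 fold change 0.26, SE 0.19), with overlap. HFD-fed *Pax4* R192H mice were at 0.438 of the SCD level of their genotype (log2 fold change -1.19, SE 0.19, adjusted p = 0.00159). In wildtype mice the log2 fold change with diet was -0.25 (adjusted p = 0.569), and the interaction was -0.94 (SE 0.27, 95% interval -1.53 to -0.36, adjusted p = 0.196). Controls of the knockout table were at 291 and 284 CPM and βiKO mice at 215, 222 and 193 CPM (ratio 0.730, log2 fold change -0.45, SE 0.09, 95% interval -0.66 to -0.25, adjusted p = 0.163). The controls lay close together and above all βiKO mice.

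*Loxl4* could hardly be measured, with between 0 and 20 counts per mouse. On the SCD it was at 0.236, 0.536 and 0.241 CPM in wildtype and at 0.153, 0.158 and 0.191 CPM in *Pax4* R192H mice (log2 fold change -1.01, SE 0.96, 95% interval -3.09 to 1.06). The groups did not overlap, but no mouse had more than 20 counts of this gene. HFD-fed wildtype mice were at 0.347, 0 and 0.0521 CPM and *Pax4* R192H mice at 0.250, 0.210 and 0.0617 CPM, with overlap. Controls were at 0.372 and 0.464 CPM and βiKO mice at 0.451, 0.454 and 0.368 CPM (log2 fold change 0.02, SE 0.48). A difference was not detectable at this depth.

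**Figure D2:**
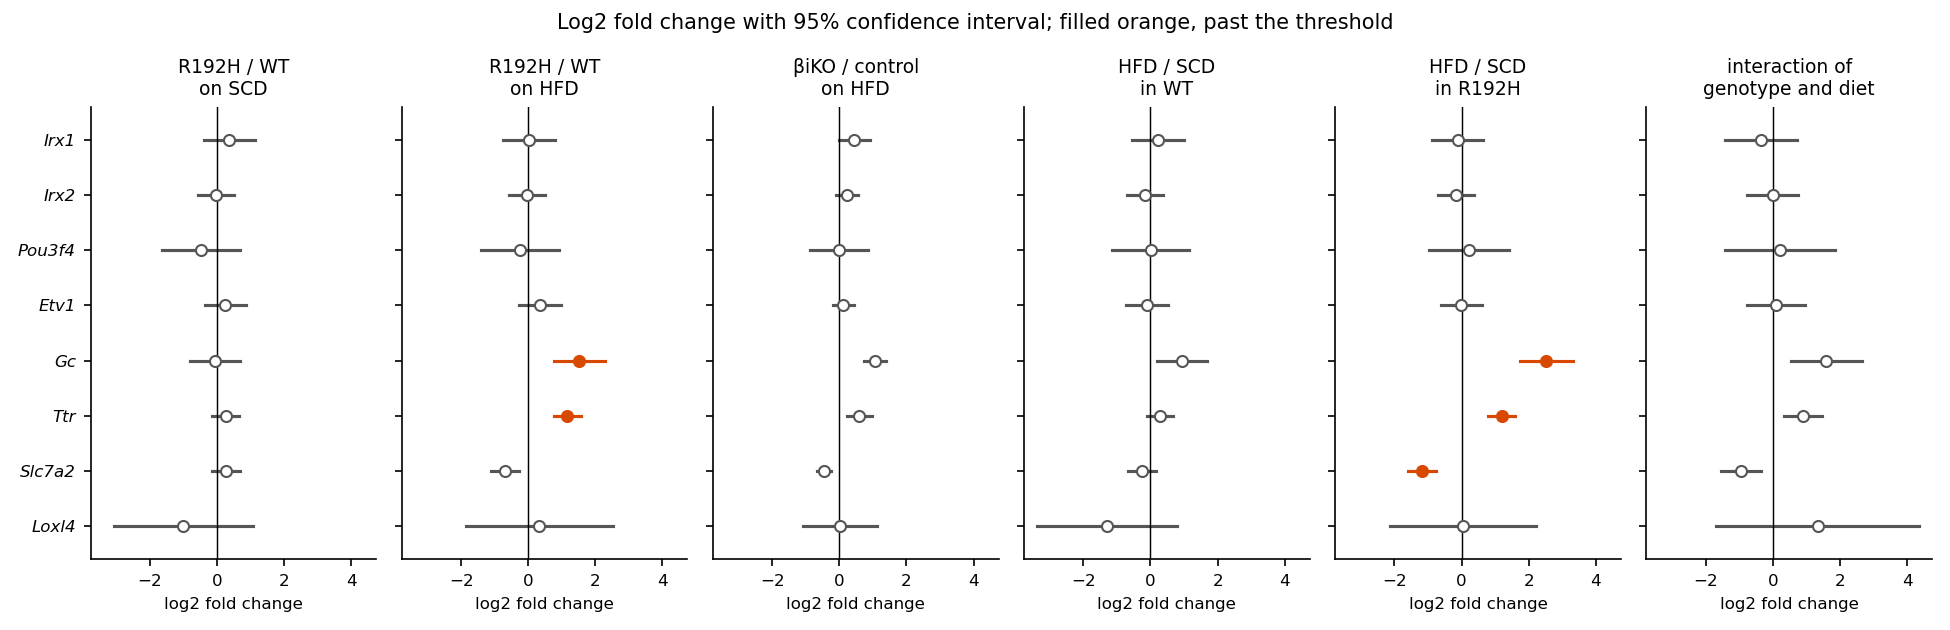
Log2 fold change of the 8 genes with its 95% interval in the 6 comparisons, filled orange where the difference was called and open where it was not. *Gc* (1.52) and *Ttr* (1.16) are called for *Pax4* R192H against wildtype on the HFD, and the intervals of the transcription factors cross 0 in each comparison.

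Counted over the 8 genes, 0 were called for *Pax4* R192H against wildtype on the SCD by edgeR, beside 0% of the 19137 genes tested, and 0 by DESeq2, beside 0.0993%. Unadjusted p-values below 0.05 were found for 0 of 8, beside 3.29% of all genes. On the HFD 2 of 8 were called by edgeR, *Gc* and *Ttr*, beside 2.28% of all genes, and DESeq2 called 3, with *Slc7a2*, beside 5.25%. At an unadjusted p below 0.05 there were also 3, beside 15.9%. Groups without overlap were found for 1 of 8 on the SCD, *Loxl4*, beside 7.83% of all genes, and for 3 of 8 on the HFD, *Gc*, *Ttr* and *Slc7a2*, beside 22.9%. With so few members these shares are descriptions. The median log2 fold change of the members was 0.11 on the SCD, with 4 above 0, and 0.18 on the HFD, with 5 above 0, beside medians of -0.00378 and -0.0136 over all genes tested.

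For HFD against SCD, 3 of 8 members were called in *Pax4* R192H mice, *Gc* and *Ttr* higher and *Slc7a2* lower, beside 15.7% of all genes. In wildtype mice 0 were called by edgeR, beside 0.371% of all genes, and 0 by DESeq2, beside 3.03%. There 1 member (*Gc*) had an unadjusted p below 0.05, beside 15.2%. The interaction was called for 0 members by edgeR, beside 0.131% of all genes, and for 2 (*Ttr* and *Slc7a2*) by DESeq2, beside 1.81%. An unadjusted p below 0.05 for the interaction was found for 3, beside 11.2%. These comparisons use the same mice as those between genotypes and are not independent of them. Between βiKO and control mice 0 members were called by edgeR, beside 0.0893% of all genes, and 2 (*Gc* and *Ttr*) by DESeq2, beside 1.2%. There 3 had an unadjusted p below 0.05, beside 12.8%. The control and βiKO mice did not overlap for 5 of 8, beside 32.6% of all genes, with *Irx1*, *Irx2*, *Gc* and *Ttr* higher and *Slc7a2* lower in βiKO islets, and the members' median log2 fold change was 0.17 beside 0.0113 over all genes.

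In order of level, HFD-fed *Pax4* R192H mice came first for *Gc* and *Ttr*, separated from HFD-fed wildtype mice, which were next. The remaining neighbours in that order overlapped, as wildtype and *Pax4* R192H mice on the SCD did. For *Slc7a2* the order began with SCD-fed *Pax4* R192H mice, and the last place, again held apart without overlap, was that of HFD-fed *Pax4* R192H mice. For *Irx1*, *Irx2*, *Pou3f4*, *Etv1* and *Loxl4* all neighbours in the order of the 4 groups overlapped.

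*Gcg*, which encodes glucagon, the hormone of alpha cells, gives a scale within each mouse. It was at 6934, 4196 and 4117 CPM in HFD-fed wildtype mice and at 3857, 5448 and 5330.5 CPM in HFD-fed *Pax4* R192H mice (log2 fold change -0.06, SE 0.23, adjusted p = 0.940). Controls were at 10814 and 13895 CPM and βiKO mice at 14168, 13945 and 14142 CPM (log2 fold change 0.19, SE 0.13, adjusted p = 0.587). The *Gcg* values overlapped between the HFD-fed genotypes of the first table, and the βiKO mice were just above the controls.

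Per 1000 *Gcg* counts of the same mouse, *Gc* was at 10.7, 58.3 and 31.1 counts in HFD-fed wildtype mice and at 99.5, 95.1 and 71.0 counts in HFD-fed *Pax4* R192H mice. *Ttr* was at 113, 163 and 156 counts against 378, 340.4 and 261 counts, and *Slc7a2* at 33.1, 32.6 and 37.6 counts against 25.9, 19.1 and 22.7 counts. None of these ratios overlapped between the genotypes, while those of *Irx1*, *Irx2*, *Pou3f4*, *Etv1* and *Loxl4* did. *Gc*, *Ttr* and *Slc7a2* were already separated in CPM, and the share of all genes without overlap on this scale was not computed. In the knockout table the ratio of *Gc* was 27.9 and 23.0 in controls and 53.8, 43.7 and 40.7 in βiKO mice. That of *Ttr* was 141 and 151 against 212, 195 and 176, and that of *Slc7a2* was 26.9 and 20.5 against 15.2, 15.9 and 13.7. Each of these differences had the same direction as in CPM. With the *Gcg* count as library size in edgeR, the HFD difference between genotypes was 1.41 for *Gc* and 1.18 for *Ttr* on the log2 scale, which did not pass the test (adjusted p = 0.116 and 0.0753, within the ranges over the alternatives given above).

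**Figure D3:**
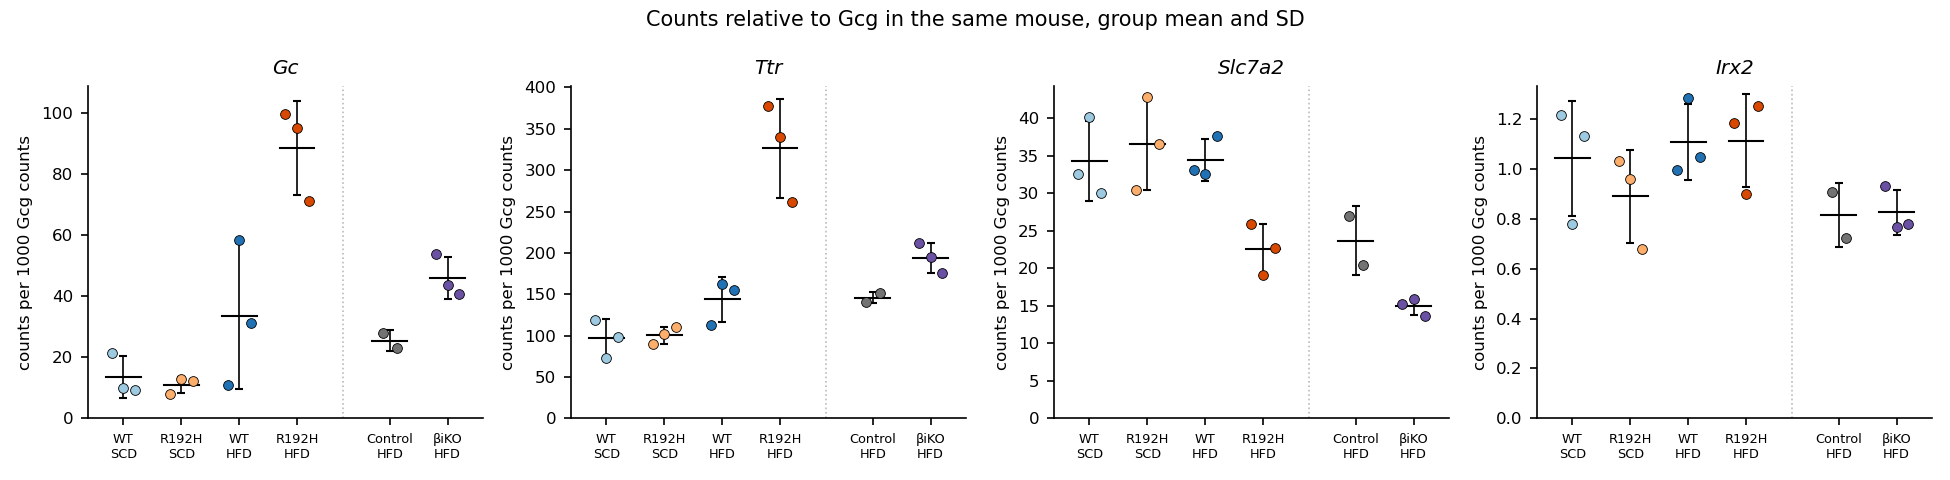
Counts of *Gc*, *Ttr*, *Slc7a2* and *Irx2* per 1000 *Gcg* counts of the same mouse, with 1 point per mouse, the group mean as a bar and the SD as a whisker. The HFD-fed *Pax4* R192H mice lie at 71.0 and above for *Gc*, over all HFD-fed wildtype mice, while the *Irx2* ratios overlap.

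In a list of 20 other alpha-cell genes, *Gcg* included, as many lay above as below 0 on the HFD. All 20 were tested, and for *Pax4* R192H against wildtype on the HFD 10 were above and 10 below 0, with a median log2 fold change of -0.01 and 1 gene called by edgeR. Of the 20, 5 had an unadjusted p below 0.05, beside 15.9% of all genes, and DESeq2 called 3, *Slc38a5*, *Gpx3* and *Dpp10*. The gene called by both was *Slc38a5*, an amino acid transporter, at 5.87, 5.01 and 4.11 CPM in wildtype and 12.1, 9.23 and 9.25 CPM in *Pax4* R192H mice (log2 fold change 1.03, SE 0.24, adjusted p = 0.0410). It had no such difference on the SCD (log2 fold change 0.16) or in βiKO mice (-0.01, adjusted p = 0.993).

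On the SCD 16 of the 20 were above 0 with a median of 0.17, and 0 were called by edgeR or DESeq2, with 2 at an unadjusted p below 0.05. Among the knockout mice 9 were above 0, the median was -0.02 and 0 were called by either tool, with 4 at an unadjusted p below 0.05. Between the diets in wildtype mice 15 of 20 were below 0, the median was -0.20 beside 0.0108 over all genes, and 0 were called by edgeR, with 4 at an unadjusted p below 0.05 and 1, *Smarca1*, called by DESeq2. Between the diets in *Pax4* R192H mice 15 of 20 were below 0, the median was -0.45 beside -0.0582 over all genes, and 5 of 20 were called, beside 15.7% of all genes. *Dpp10*, a subunit of potassium channels, was lower (log2 fold change -1.19, adjusted p = 0.000655), as were *Peg3* (-0.88), *Gria2* (-0.81) and *Smarca1* (-0.77), while *Tm4sf4* was higher (0.63).

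Relatives and partners of the members were largely at low counts in islets. Of 18 such genes, among them other Iroquois, POU-domain and ETS genes, 9 passed the filter, and 0 were called by edgeR or DESeq2 between genotypes on either diet or in βiKO mice. Unadjusted p-values below 0.05 were found for 0 of them on the SCD and for 2 each on the HFD and in βiKO mice. Their median log2 fold change was 0.26 for *Pax4* R192H on the HFD, with 6 of 9 above 0, and 0.13 in βiKO mice. *Etv5*, a close relative of *Etv1*, was called between the diets in *Pax4* R192H mice (log2 fold change 1.17, adjusted p = 0.000477). In wildtype mice its log2 fold change with diet was 0.78 (adjusted p = 0.0519), without overlap and called by DESeq2, and the interaction was 0.40 (adjusted p = 0.533). Of 8 transcription factors shared by endocrine cells 7 were tested and 0 were called between genotypes by either tool, with 1 at an unadjusted p below 0.05 on each diet in *Pax4* R192H mice and 4 in βiKO mice. They had a median of -0.16 for *Pax4* R192H on the HFD, where 1 of 7 was above 0, and of -0.21 in βiKO mice, where 0 of 7 were.

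**Figure D4:**
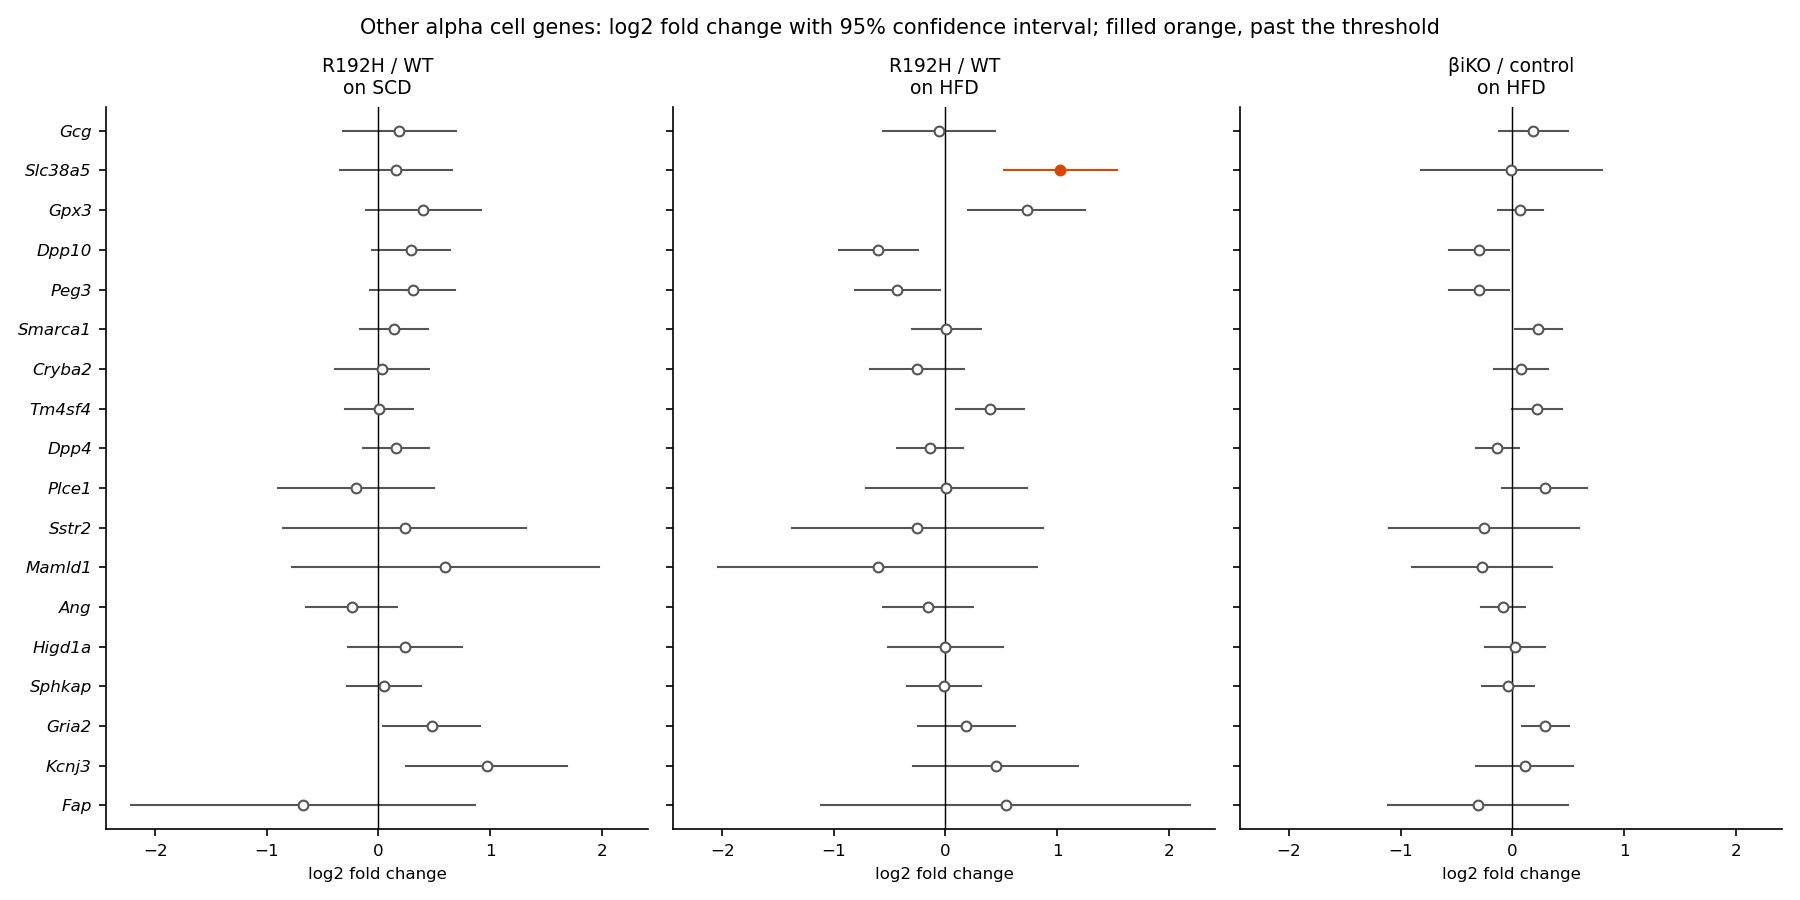
Log2 fold change of 18 of the 20 other alpha-cell genes with its 95% interval, for *Pax4* R192H against wildtype on the SCD and on the HFD and for βiKO against control. *Slc38a5* (1.03 on the HFD), filled orange, is the only gene of the 20 called, and *Gcg* lies close to 0 at -0.06 in *Pax4* R192H mice.

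Acinar markers moved with genotype on the HFD. All 25 acinar genes had higher fitted values in HFD-fed *Pax4* R192H than in wildtype mice, with a median log2 fold change of 1.53, 7 called by edgeR, 23 called by DESeq2 and 23 without overlap. Their summed level was between 17059 and 26232 CPM in HFD-fed wildtype and between 39022 and 106926 CPM in HFD-fed *Pax4* R192H mice, beside 13497 to 26346 CPM in SCD-fed wildtype mice and 13644 to 20540.3 CPM in SCD-fed *Pax4* R192H mice. Between the diets in *Pax4* R192H mice 25 of 25 were above 0, with a median of 1.84 and 23 called by edgeR. For the interaction 25 of 25 were above 0 with a median of 1.72, 23 at an unadjusted p below 0.05, 0 called by edgeR and 2 by DESeq2. With the mean log2 level of the acinar genes as a covariate, the HFD difference was 1.40 for *Gc* (adjusted p = 0.594) and 1.03 for *Ttr* (adjusted p = 0.390), and edgeR called 0 of 19137 genes, with 1465 at an unadjusted p below 0.05. The same covariate gave 2.39 for *Gc* (adjusted p = 0.0870), 1.05 for *Ttr* (adjusted p = 0.126) and -1.02 for *Slc7a2* (adjusted p = 0.165) between the diets in *Pax4* R192H mice, where all 3 were called without it. This acinar mean was 8.95 to 10.4 in HFD-fed *Pax4* R192H mice and at most 8.40 in every other mouse of that table. The covariate thus nearly follows that group, so that these fits cannot separate acinar level from group. In the knockout table the acinar genes went the other way, with a median of -0.69, 25 of 25 below 0, and 0 called by edgeR or DESeq2 or at an unadjusted p below 0.05. There the summed level was between 25104 and 112888 CPM in controls and between 17861 and 87625 CPM in βiKO mice, and *Gc* was above the controls in all 3 βiKO mice. Without the most acinar-rich mouse of each group, an alternative chosen after seeing the data, the *Gc* difference in βiKO mice was 0.87 (adjusted p = 0.393). That fit had 1 control against 2 βiKO mice and assumes that the lone control varies as the βiKO mice do.

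*Gc* and *Ttr* are also major products of the liver, so a list of 13 hepatocyte genes was examined. Its summed level was between 13.3 and 16.0 CPM in HFD-fed wildtype and between 21.9 and 74.4 CPM in HFD-fed *Pax4* R192H mice, with 15.1 to 128 CPM on the SCD in *Pax4* R192H mice. Of the 13, 6 passed the filter, and on the HFD 5 of these 6 were above 0 with a median log2 fold change of 1.14 beside -0.0136 over all genes, 4 without overlap and 4 at an unadjusted p below 0.05. *Apoa2* was called by edgeR (log2 fold change 1.60, adjusted p = 0.0480), and DESeq2 called *Apoa2* and *Ambp*. *Ahsg*, *Apoc3* and *Cyp3a11* were at 0 in 8 of 12 mice of the first table and *Fga* in 9, while *Ambp*, *Apoa2*, *Apob* and *Tf* had counts in every mouse. *Alb*, which encodes albumin, was between 0.0337 and 1.07 CPM, far below *Gc* in every mouse. In the second table the list summed to 35.6 to 36.8 CPM in controls and 48.5 to 54.6 CPM in βiKO mice, with *Alb* at 1.39 and 1.45 CPM against 2.29 to 2.48 CPM. Beta-cell markers summed to 68442 to 96746 CPM in HFD-fed wildtype and 101488 to 112906 CPM in *Pax4* R192H mice on that diet, where edgeR called 4 of 15 lower and DESeq2 called 7. Of the 15, 11 were below 0 there, with a median log2 fold change of -0.21. Without overlap 8 were lower and 1 higher, beside 22.9% of all genes in either direction. In the knockout table the beta-cell markers summed to 126063 to 136879 CPM in controls and 136546 to 141345 CPM in βiKO mice, with a median log2 fold change of -0.37, 9 of 15 at an unadjusted p below 0.05, 1 called lower by edgeR and 3 called by DESeq2. *Ins1*, *Ins2* and *Iapp* made up most of each of these sums. Of 4 markers of PP cells, which make pancreatic polypeptide, 3 were tested in the first table, and on the HFD 3 of 3 were above 0 with a median log2 fold change of 0.50, 2 without overlap, 3 at an unadjusted p below 0.05 and 0 called by edgeR or DESeq2. They summed to 1166 to 1619 CPM in HFD-fed wildtype and 1676 to 3059.8 CPM in HFD-fed *Pax4* R192H mice. In βiKO mice 4 of 4 were above 0 with a median of 0.33, with 0 called by either tool or at an unadjusted p below 0.05, and sums of 4171 to 5768 CPM in controls against 5243 to 6988 CPM. Sums of 10 duct markers also separated the groups in both tables, at 182 to 224 CPM in HFD-fed wildtype against 237 to 248 CPM in *Pax4* R192H mice on that diet, with 372 to 382 CPM in controls against 428 to 507 CPM in βiKO mice. None of the duct genes was called by edgeR, with 4 of 9 and 2 of 10 at an unadjusted p below 0.05, and DESeq2 called *Spp1* in both. In βiKO mice 10 of 10 endothelial genes were above 0, with sums of 396 to 481 CPM against 373 to 381 CPM in controls, and 10 stromal genes summed to 299 to 419 CPM against 282 to 296 CPM. Of these, edgeR and DESeq2 called 0, with 3 endothelial and 1 stromal gene at an unadjusted p below 0.05. Immune genes summed to 142 to 223 CPM in SCD-fed wildtype mice, against 100.4 to 112 CPM in SCD-fed *Pax4* R192H and 109 to 121 CPM in HFD-fed wildtype mice, and to 93.2 to 143 CPM in *Pax4* R192H mice on the HFD. Of the 10, 9 were tested, and 9 of 9 were below 0 between genotypes on the SCD (6 at an unadjusted p below 0.05) and above 0 for the interaction (4 at an unadjusted p below 0.05), with 0 called by edgeR and *Ptprc* and *Lyz2* called by DESeq2 in both. Between the diets in wildtype mice 8 of 9 were below 0, with 2 called lower by edgeR and 3 called by DESeq2, and 10 of 10 stromal genes were below 0 with a median of -1.69, 6 at an unadjusted p below 0.05, 0 called by edgeR and 4 by DESeq2. Between genotypes on the HFD and for the interaction 10 of 10 stromal genes were above 0, with medians of 0.30 and 0.84. In both, 0 were called by either tool or at an unadjusted p below 0.05. In βiKO mice 8 of 9 immune genes were above 0, with a median of 0.26, 1 at an unadjusted p below 0.05 and 0 called by edgeR or DESeq2. Of 8 markers of delta cells, which make somatostatin, 4 were above 0 between genotypes on the HFD, with a median log2 fold change of -0.03. There 1 was called lower by edgeR, beside 2.28% of all genes, and 1, *Pcp4*, by DESeq2, beside 5.25%. In βiKO mice their median was 0.04 and 0 were called by either tool. The part of acinar, beta-cell, delta-cell, PP-cell, hepatocyte, duct, endothelial, stromal or immune transcripts in the differences of *Gc*, *Ttr* and *Slc7a2* was not tested beyond these values.

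**Figure D5:**
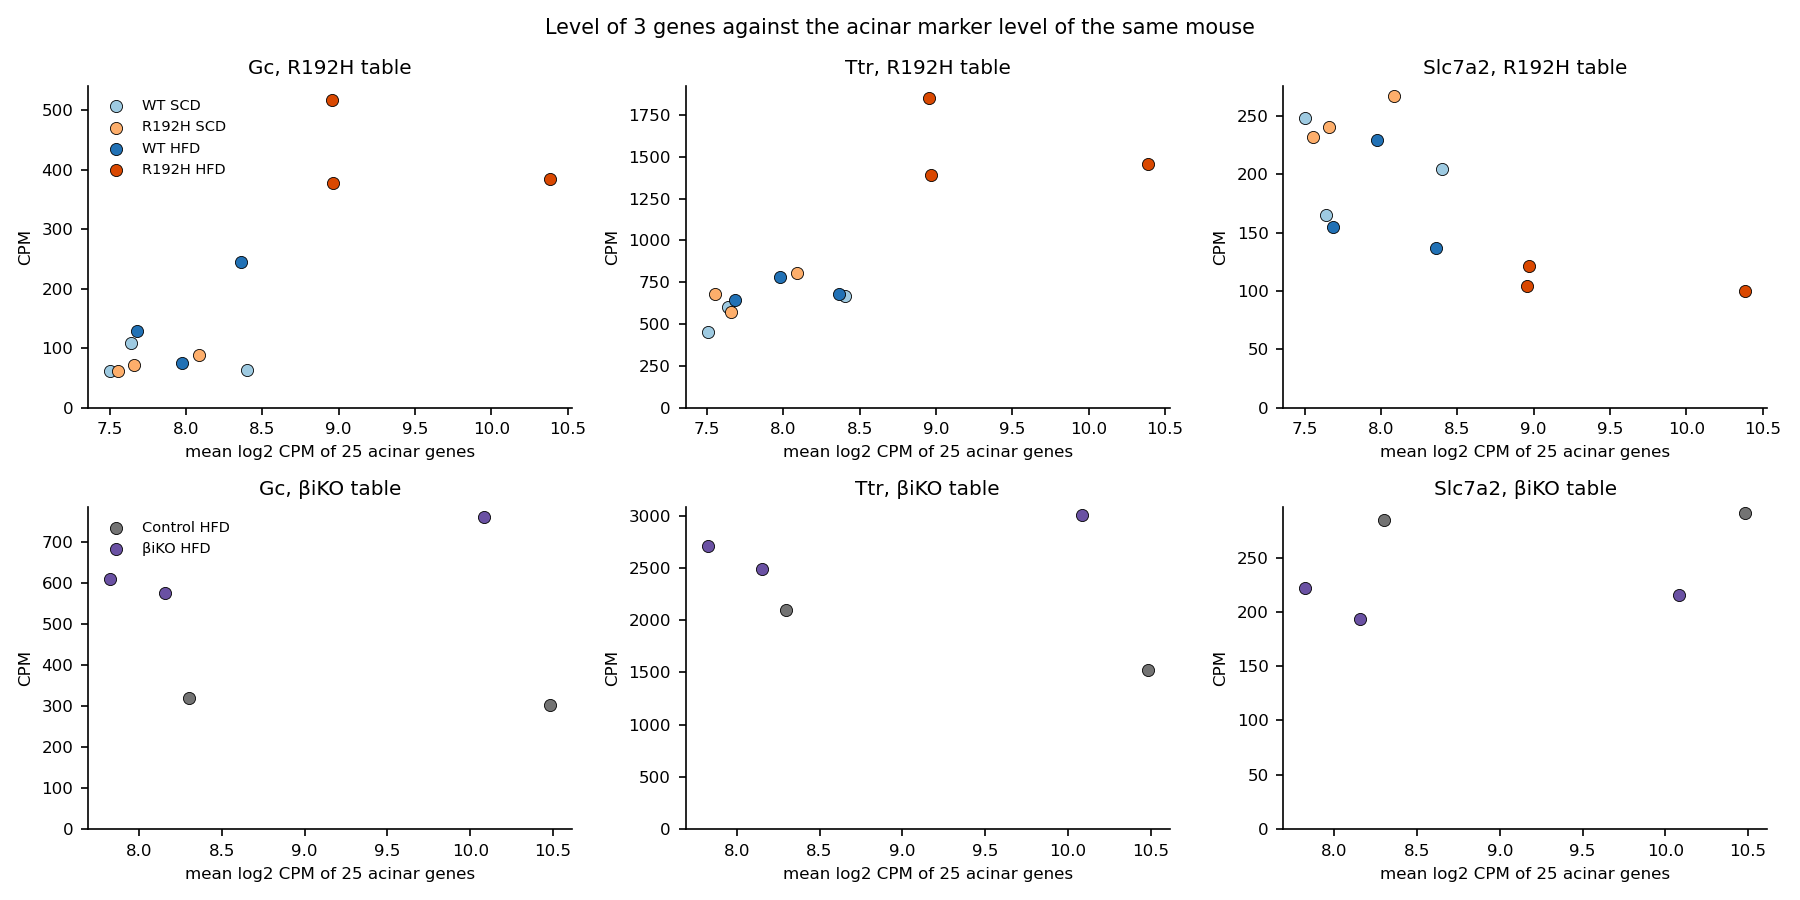
Level of *Gc*, *Ttr* and *Slc7a2* in CPM (vertical) against the mean log2 CPM of the 25 acinar genes (horizontal), with 1 point per mouse and the *Pax4* R192H table above the βiKO table. The HFD-fed *Pax4* R192H mice have the highest acinar level of their table together with the highest *Gc* and *Ttr* and the lowest *Slc7a2*, and in the knockout table the mice richest in acinar transcripts belong to both groups.

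The members did not vary as 1 group over the 12 mice of the first table. The log2 levels of *Gc* and *Ttr* had a Pearson correlation of 0.855, which was 0.109 for deviations from the group means. Those of *Gc* and *Slc7a2* had one of -0.942, which remained -0.776 within groups, so that mice of the same group with more *Gc* tended to have less *Slc7a2*. *Irx1* and *Irx2* had a correlation of 0.357, or 0.426 within groups. Mice share their library between genes, so that these values are descriptions.

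The genes whose log2 level over these 12 mice was most like that of a member were taken from those with a mean of at least 10 CPM. For *Gc* they were *Rabac1* (r = 0.988), *Cnpy2* (0.987) and *Dio1* (0.986), and for *Ttr* they were *Kcnk16* (0.958), *Chid1* (0.950) and *Cc2d2a* (0.947). *Slc7a2* was most like *Nckap1* (0.986), *Meis2* (0.982) and *Strn* (0.978). *Etv1* was most like *Dsg2* (0.914), an unnamed gene (0.903) and *Mid2* (0.901). *Irx1* had *Zfp532* (0.868), *Lrp12* (0.833) and *Tmem209* (0.808), and *Irx2*, with the weakest likeness, *Fam193b* (0.757), *Tctn3* (0.745) and *Smarcd2* (0.739). All of these genes come from the same 12 libraries, and part of the likeness of *Gc*, *Ttr* and *Slc7a2* is the shared difference between the groups. For deviations from the group means the correlations were 0.924 to 0.955 for *Gc* and 0.885 to 0.967 for *Slc7a2*. Those of *Ttr* were lower, at 0.491 to 0.724.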

How the data were processed

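Bulk RNA-seq libraries of isolated islets from 17 mice were analysed. The authors made stranded total RNA libraries, aligned reads to mm10 and deposited expected counts per gene, unscaled for depth. The submitters' processing notes name STAR v2.7.1 and RSEM v1.3.3, and the paper's methods name tximport. The annotation release is not given in the sources used here. Expected counts were rounded to whole numbers, and the length offsets of tximport were not used.

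Groups came from the sample labels. Each table was fitted on its own in R v4.3.3 with edgeR v4.0.16, using filterByExpr (minimum count 10), TMM factors, a coefficient per group and the quasi-likelihood F-test. A gene counted as called where the Benjamini-Hochberg adjusted p over all genes tested was below 0.05 and the log2 fold change exceeded 0.5 in size. A prior count of 2 went into log2 CPM. The fits were tested on simulated data. The labels number biological replicates, each taken here as 1 mouse, and do not say whether islets of several mice were pooled. Nothing in the labels says how mice were batched, and p-values weigh each group difference against the estimated spread between these mice.

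The 8 members and the gene lists were chosen with earlier results of these data known. All members were named in every comparison, and *Gcg* always. Genes of the lists of other alpha-cell genes, of relatives and partners and of shared endocrine factors were named where called in a genotype comparison. Genes of the other cell-type lists, *Alb*, genes called between the diets and *Gpx3* were named after their values were seen. Results for 2 listed genes that the rule also named, and 1 promoter motif, are not reported here. Likeness was Pearson's correlation of log2 CPM over 12 mice, for members with a mean of at least 1 CPM.

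A mouse had 24268157 to 42679645 counts in total for the first table and 28618835 to 31887537 for the second. A floor of 3 counts was used for genes at 0, and floors cover counting error only. No mouse pair of a group had the same counts, with chi-square values per gene of 10.0 to 132. The pair most alike was the first and second SCD-fed *Pax4* R192H mice, at 10.0, against 55.2 and 56.5 for the other pairs of that group. The alternatives tried were DESeq2's RLE scaling, no filter, a filter of at least 10 counts per sample, a block for the replicate number, an acinar covariate, DESeq2 v1.42.0, a model of only the groups compared, leaving out the 2 largest genes, the *Gcg* count as library size and leaving out each mouse. Gene positions came from GENCODE M21 (GRCm38) and promoters from RefSeq (GRCm38.p6).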

Additional observations from a re-analysis of the deposited data

How the results depend on the processing

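The number of members called by edgeR was 0 on the SCD, 2 on the HFD, 0 for the interaction, 0 for diet in wildtype, 3 for diet in *Pax4* R192H and 0 in βiKO mice. Without the filter on low counts it was 2 for the interaction, 1 for diet in wildtype and 2 in βiKO mice. DESeq2 called 2 for the interaction and 2 in βiKO mice. The acinar covariate, which nearly follows the HFD-fed *Pax4* R192H group, left 0 on the HFD and 0 for diet in *Pax4* R192H. A model of only the groups compared left 1 on the HFD. Leaving out a mouse gave between 0 and 3 on the HFD, with 0 without the third wildtype mouse and 3 without the second, between 0 and 1 for the interaction and between 0 and 1 in βiKO mice. The deviations of same-numbered mice from their group means had correlations between -0.296 and 0.193. With 2 or 3 mice per group, these values cannot show whether same-numbered mice were handled together. The first mouse had the highest mean acinar level of its group among HFD-fed *Pax4* R192H, control and βiKO mice. With the replicate block, 1 member was called on the HFD and 1 in βiKO mice, where *Gc* had a log2 fold change of 1.13 (adjusted p = 0.00672), and on the HFD *Gc* had 1.57 (adjusted p = 0.0775). The block changed no other count of members. The cause of these changes was not tested.

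Over all genes, 437 were called on the HFD, 147 with the block, 1004 by DESeq2, 1279 without the filter and 0 with the acinar covariate. Without the filter, calls went from 25 to 708 for the interaction and from 71 to 924 for diet in wildtype. In βiKO mice 18 were called, 88 with the block, 243 by DESeq2 and 697 without the filter.

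*Gc*, *Ttr* and *Slc7a2* kept their direction on the HFD and in βiKO mice under every alternative run. Directions that turned were those of small differences. With the block these were *Irx1* on the HFD (-0.0091), *Irx2* for the interaction (0.0088) and *Loxl4* for diet in *Pax4* R192H (-0.11), and without the filter *Pou3f4* in βiKO mice (0.0050). The acinar covariate turned *Irx2* (0.011), *Pou3f4* (0.40) and *Etv1* (-0.17) on the HFD, *Irx1* (0.14), *Irx2* (0.051) and *Etv1* (-0.42) for the interaction, *Irx1* (0.37) and *Loxl4* (-0.14) for diet in *Pax4* R192H and *Loxl4* in βiKO mice (-0.0053). Without both acinar-rich mice (1 control against 2 βiKO mice, chosen after seeing the data) *Loxl4* was at -0.20 in βiKO mice and 0 members were called. With the *Gcg* library size the median of all genes was -0.19 on the SCD, 0.19 for the interaction, 0.30 and 0.44 for diet in wildtype and *Pax4* R192H, and -0.20 in βiKO mice, while under TMM scaling these medians lay between -0.0582 and 0.0113. It turned *Irx2* on the HFD (0.0090), for the interaction (0.23) and for diet in wildtype (0.088), *Etv1* (0.16) and *Slc7a2* (0.0061) for diet in wildtype, *Irx1* (0.31), *Irx2* (0.32) and *Etv1* (0.55) for diet in *Pax4* R192H, and *Etv1* (-0.086) and *Loxl4* (-0.17) in βiKO mice.

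Leaving out a mouse turned the direction of *Gc* on the SCD (range -0.22 to 0.25) and of the following. On the SCD these were *Irx2* (-0.26 to 0.17) and *Etv1* (-0.054 to 0.52). On the HFD they were *Irx1* (-0.22 to 0.34), *Irx2* (-0.22 to 0.16), *Pou3f4* (-0.74 to 0.13) and *Loxl4* (-0.21 to 2.45). For the interaction they were *Irx2* (-0.19 to 0.25), *Pou3f4* (-0.26 to 0.61) and *Etv1* (-0.17 to 0.40). For diet in wildtype they were *Irx1* (-0.087 to 0.57), *Irx2* (-0.36 to 0.033), *Pou3f4* (-0.38 to 0.18) and *Etv1* (-0.34 to 0.16). For diet in *Pax4* R192H they were *Irx1* (-0.31 to 0.16), *Irx2* (-0.36 to 0.087), *Pou3f4* (-0.25 to 0.55), *Etv1* (-0.19 to 0.29) and *Loxl4* (-0.32 to 0.46). In βiKO mice they were *Pou3f4* (-0.22 to 0.26) and *Loxl4* (-0.13 to 0.19). *Loxl4* was not tested in the first table with at least 10 counts in every sample or without the 2 largest genes. Of the members, *Pou3f4* and *Loxl4* had the lowest counts in both tables.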
